A study of Mus musculus with 7 samples.

Results

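Pbx proteins were found at 23751 limb sites where no Shox2 was listed in either limb or palate, and these sites are described here. They were chosen by overlap of deposited peak lists: a site is a Pbx peak of embryonic limb that is under 2000 bp wide, lies on chromosomes 1 to 19, X or Y, overlaps no Shox2 limb peak by 1 bp or more, and contains no Shox2 palate position. They made up 74.1% of the 32070 Pbx peaks of that width (95% Wilson interval 73.6 to 74.5%, here and below an interval that treats peaks as independent and covers counting error only), out of 33915 peaks in the whole Pbx list and 82921 regions in the 3 lists used. Because the overlap with Shox2 chose the sites, that share is a description and not a finding. A site without a listed Shox2 peak was not shown to be free of Shox2, since a peak below the cutoff of a list is missing from it.

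The libraries came from chromatin immunoprecipitation followed by sequencing (ChIP-seq) of fresh mouse embryo tissue. Pbx was precipitated from limb at stage E12.5, counted in embryonic days, with an antibody against Pbx, and the labels do not say which Pbx proteins it recognises or whether those embryos carried a tag. Shox2 was precipitated from limb and from palate of Shox2-HA animals at the same stage, with an antibody against the HA epitope tag. Each group had 1 library, and strain, sex and the number of embryos pooled are not given in the labels. The input and the ChIP from untagged embryos were not analysed here, and the depth of the libraries is not given in the peak lists, so none of the sites was set against a background list.

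Pbx factors are homeodomain proteins of the TALE class, named for an extra loop of amino acids in the homeodomain. They bind DNA mostly with partners, among them Hox proteins and the related Meis and Prep factors. Shox2 is a homeodomain factor needed for the upper arm and thigh skeleton and for closure of the anterior palate. Limb sites with Pbx and no listed Shox2 are therefore places where Pbx was listed without 1 homeodomain factor of the same tissue.

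Limb Shox2 removed most of the Pbx peaks that did not qualify. Of the 32070 Pbx peaks under 2000 bp, 24821 (77.4%) met no limb Shox2 peak and 30172 (94.1%) held no palate position. Those that met Shox2 comprised 6421 with limb Shox2 alone, 1070 with palate Shox2 alone and 828 with both. Among 1775 Pbx peaks of 2000 bp or more, which the width rule set aside, 924 (52.1%) met no Shox2. The 2 Pbx peaks on Y were both among the sites, and neither Shox2 list had an entry on Y. No site overlapped any of the 8999 regions that the authors' deposited table lists as co-occupied by Shox2 and Pbx, which follows from the rule.

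The sites were narrower and stood lower in the Pbx list than Pbx peaks with Shox2. Their median width was 828 bp (quartiles 655 and 1062 bp), and together they covered 21.3 Mb. Pbx peaks with limb Shox2 alone had a median width of 1005 bp, those with palate Shox2 alone 1034 bp and those with both 1150 bp. On each of the 20 chromosomes 1 to 19 and X, the median width of the sites lay below that of Pbx peaks with limb Shox2 alone. A wide peak is more likely to meet another list by its extent alone, so width and the rule are tied.

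The Pbx list is not in genome order at its top, and the file does not say what orders it. In its first decile, 51.2% of lines stood after the line above them in genome order (a list in random order would give about 50%). That share rose in every decile and reached 93.4% in the last. The median line of the sites was 19302, against 12207 for Pbx peaks with limb Shox2 alone, and the difference had this direction on 20 of 20 chromosomes. Still, 10118 of the sites (42.6%) stood in the first 50% of the Pbx list, as did 15394 of the 32070 Pbx peaks under 2000 bp.

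The share of Pbx peaks without Shox2 rose from each decile of the list to the next, but not within the first. It was 53.2% (interval 51.3 to 55.1%) in the first decile, 75.2% in the fifth and 85.0% (83.7 to 86.1%) in the last. Inside the first decile the order was the opposite: 65.2% (59.7 to 70.2%) of the 313 peaks in the first 500 lines were without Shox2, against 51.6% (49.5 to 53.6%) of the 2339 after them. Another 182 of the first 500 lines were peaks of 2000 bp or more, which the width rule set aside. Both tissues contributed to the rise over deciles: limb Shox2 was met by 42.2% of Pbx peaks in the first decile and 12.8% in the last, and a palate position was held by 10.6% and 3.58%. Peaks narrowed over the same deciles: their median width was 1259 bp at the top and 686 bp at the bottom. With every Pbx and limb Shox2 peak set to 200 bp around its centre, 66.7% of peaks at the top and 89.3% at the bottom had no Shox2, and the rise was thus also present at equal extent.

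**Figure D1:**
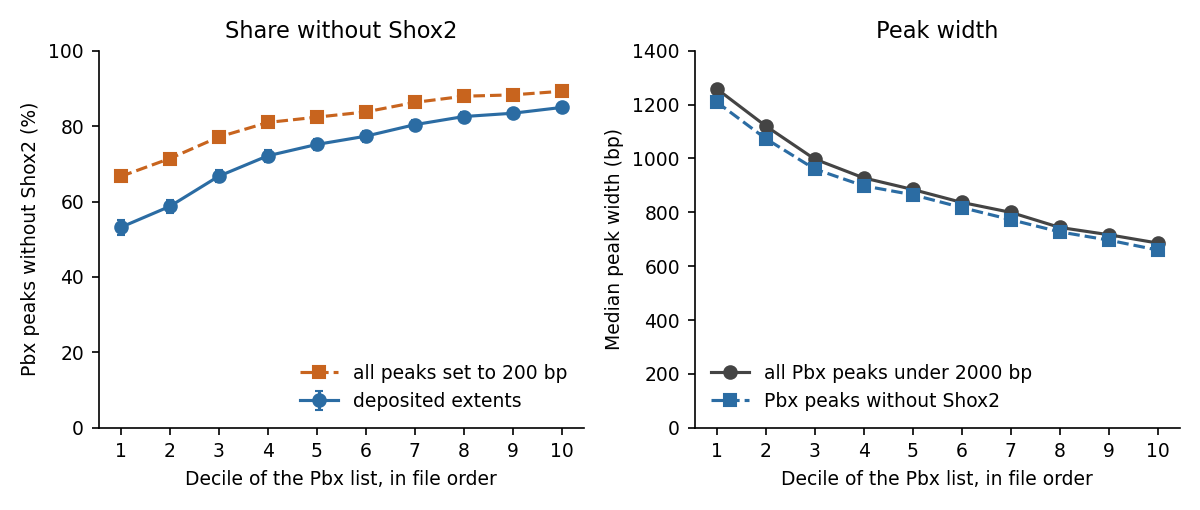
Left, percent of Pbx limb peaks under 2000 bp that meet no Shox2, by decile of the Pbx list in file order, at the deposited extents (circles, bars are 95% Wilson intervals that treat peaks as independent) and with peaks set to 200 bp (squares). Right, median width in bp of all these Pbx peaks (circles) and of those without Shox2 (squares). The share climbs from 53.2% to 85.0% while the median width falls from 1259 to 686 bp.

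Width and place each went with the share when the other was held within a range. Among Pbx peaks of 600 to 800 bp, 78.5% of those in the first 50% of the list and 85.8% of those in the second had no Shox2. Among those of 1500 to 2000 bp the shares were 54.5% and 64.5%. Over the width ranges as a whole, the share fell from 92.9% below 400 bp to 56.7% from 1500 to 2000 bp. At 200 bp that order was not kept: the share was lowest, at 74.6%, from 1000 to 1200 bp, and was 80.0% from 1500 to 2000 bp. At their centres, the widest Pbx peaks thus met Shox2 less often than those of 1000 to 1200 bp.

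Most of the sites lay several kb or more from the nearest listed Shox2. The median gap from the edge of a site to the nearest limb Shox2 peak was 35.5 kb (quartiles 11.2 and 101 kb), and to the nearest palate position it was 42.8 kb (15.8 and 100 kb). There were 1034 sites (4.35%) with a Shox2 peak or position of either tissue within 1 kb, while 1946 (8.19%) had none within 100 kb. How many sites would lie within 1 kb from the length of the Shox2 lists alone was not computed. The nearest Shox2 was from limb at 13254 sites and from palate at 10495, in lists of 33915 and 15091 entries.

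The first 100 bp beside a limb Shox2 peak held no excess of sites over the rest of the first 1 kb. Between 62 and 91 sites fell in each 100 bp of gap from 0 to 1 kb, with 68 in the first 100 bp, and the count then declined to 68.6 per 100 bp from 1 to 2 kb and 41.0 from 9 to 10 kb. For palate positions the first 100 bp held 24 sites and the range from 1 to 2 kb held 39.9 per 100 bp. On the other side of the rule, only 82 of the 7249 Pbx peaks that met limb Shox2 (1.13%) shared under 100 bp with it, and the median overlap was 333 bp, with limb Shox2 peaks of 261 bp at the median. With Shox2 counted as met within 500 bp of the Pbx peak, the share without it was 72.5%. With only the first 50% of the limb Shox2 list in file order, the median gap to limb Shox2 was 70.9 kb, so the gap depends on the length of that list.

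**Figure D2:**
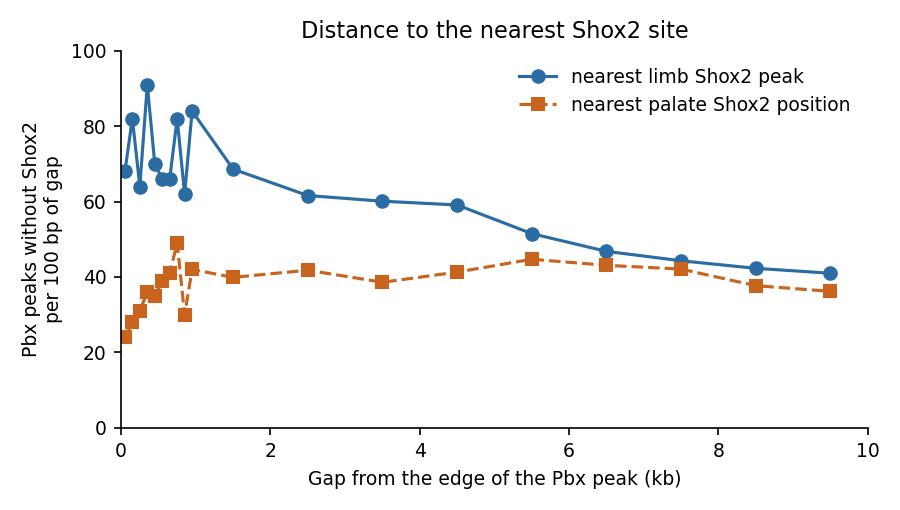
Number of Pbx sites without Shox2 per 100 bp of gap (vertical axis) against the gap in kb from the edge of the Pbx peak (horizontal axis) to the nearest limb Shox2 peak (circles) or palate Shox2 position (squares). Points are bins of 100 bp up to 1 kb and of 1 kb beyond. The first 100 bp beside a limb peak hold 68 sites, within the 62 to 91 of the bins up to 1 kb.

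The peaks at the boundary show how sharp it is. On chromosome 18, the site at chr18:58624418-58626142 (mm9) directly abutted a limb Shox2 peak with a gap of 0 bp, and the sites chr3:52270361-52270929 and chr2:49545697-49546351 each lay 1 bp from such a peak. Just outside, the Pbx peak chr1:165581516-165582295 shared 1 bp with a limb Shox2 peak, chr3:152634323-152634775 shared 4 bp and chr11:19665008-19666076 shared 6 bp. These 6 peaks stood at lines 14205 to 31151 of the Pbx list.

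Sites close to Shox2 differed little in width or place from sites far from it. The 1034 sites within 1 kb of a Shox2 entry had a median width of 862.5 bp and a median line of 19920. The 1946 sites beyond 100 kb had a median width of 800.5 bp and a median line of 19024. What did differ was company: sites within 1 kb had on average 3.19 other Pbx peaks within 50 kb, and sites beyond 100 kb had 1.83. Of the far sites, 31.2% had no other Pbx peak within 50 kb and 2.98% lay on X, against 12.0% and 0.484% of the near ones.

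Among the 5 sites farthest from Shox2, 4 had no other Pbx peak within 50 kb. On X, the site chrX:27143531-27143941 lay 4405 kb from the nearest Shox2 entry. On chromosome 14, chr14:6035591-6036611 lay 2651 kb away. The next 3 were on chromosome 10, at chr10:129978612-129980423, chr10:129751516-129752149 and chr10:129548179-129549060, with gaps of 1564, 1337 and 1133 kb, and the last of them had 1 other site within 50 kb. Of these 5 peaks, the first on chromosome 10 stood highest in the list, at line 3762.

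Where Pbx peaks were crowded, a smaller share of them met limb Shox2. Neighbours are counted here and throughout as Pbx peaks under 2000 bp with centres within 50 kb. Of the 5880 Pbx peaks with no such neighbour, 69.0% (interval 67.8 to 70.1%) were without Shox2, and of the 3961 with at least 6 such neighbours 79.7% were, a difference of 10.7 percentage points. The number of neighbours comes from the Pbx list alone and was not part of the rule. The share rose over all 7 classes of crowding and reached 80.8% (78.0 to 83.2%) among the 884 peaks with 9 to 23 neighbours. Crowded peaks were wider than lone ones (985 bp against 797 bp at the median in the outer classes) and stood higher in the list, at median lines of 14581 and 19175. Width and place went with a lower share over the list as a whole, opposite to crowding.

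The tissues differed in direction. Limb Shox2 was met by 28.4% of lone Pbx peaks and by 16.1% of those with 6 or more neighbours, while a palate position was held by 4.93% and 6.79%. Around the same peaks, limb Shox2 was not scarce: the mean number of limb Shox2 peaks within 50 kb that did not overlap the Pbx peak was 1.14 for lone peaks and 2.66 for crowded ones. Crowded Pbx peaks thus had more limb Shox2 peaks nearby, while a smaller share of them met one. The nearby count includes limb Shox2 peaks that lay on neighbouring Pbx peaks, and crowded peaks have more such neighbours by definition.

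Within width ranges the difference in share was larger than over all widths. Below 800 bp, 92.4% of crowded and 80.6% of lone Pbx peaks were without Shox2. From 800 to under 1200 bp the shares were 79.9% and 59.4%, and from 1200 bp they were 67.8% and 51.7%. By chromosome, the crowded share was the higher on 16 of 20. It was lower on chromosomes 7, 1, 14 and 19, with a difference of -6.47 percentage points on 7, and the median difference over chromosomes was 8.56 points. When the palate list alone defined the sites, crowded peaks had the lower share, with a difference of -1.86 points, and with the limb list alone the difference was 12.3 points. X had only 4 crowded peaks, so its difference of 33.7 points rests on very few. With 1 library per group there is no replicate to test these differences against, and they describe these lists.

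**Figure D3:**
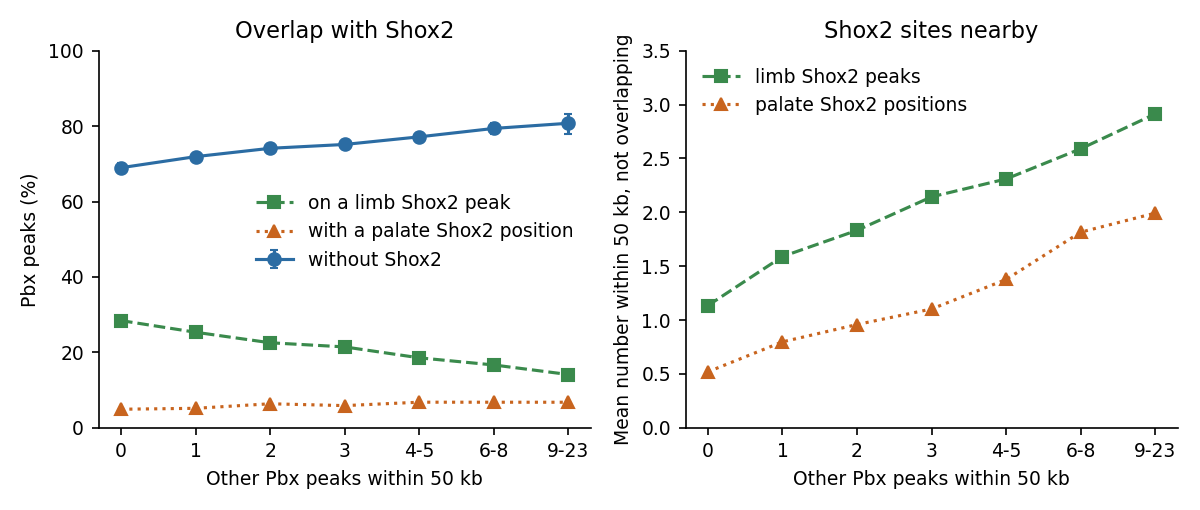
Left, percent of Pbx limb peaks under 2000 bp without Shox2 (circles, bars are 95% Wilson intervals), on a limb Shox2 peak (squares) and with a palate Shox2 position (triangles), by the number of other Pbx peaks within 50 kb. Right, mean number of limb Shox2 peaks (squares) and palate positions (triangles) within 50 kb that do not overlap the Pbx peak. From 0 to 9-23 neighbours the share without Shox2 goes from 69.0% to 80.8%.

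Set by class, the sites had more Pbx and less limb Shox2 around them than Pbx peaks on limb Shox2 did. They had on average 2.75 other Pbx peaks within 50 kb, against 2.18 for Pbx peaks with limb Shox2 alone, and this order held on 18 of 20 chromosomes. They had 1.52 limb Shox2 peaks within 50 kb, against 3.06 besides the overlapping ones, and this order held on 20 of 20. The order of limb Shox2 is tied to the rule, since the same limb list set these classes apart. Palate positions were about as frequent around both, with means of 1.03 and 0.961. The median distance between centres to the nearest other Pbx peak was 13.8 kb for the sites and 17.9 kb for Pbx peaks with limb Shox2 alone, shorter for the sites on 16 of 20 chromosomes. Against Pbx peaks with palate Shox2 alone, which had 3.07 Pbx neighbours and 1.81 limb Shox2 peaks nearby, the order of Pbx neighbours was not the same across chromosomes, with the sites lower on 13 and higher on 7.

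Most of the sites had Shox2 in their neighbourhood, but limb Shox2 less often than Pbx peaks as a whole. A limb Shox2 centre lay within 50 kb of 13822 sites (58.2%), and as many as 23 lay around a single site. There were 5285 sites (22.3%) with no Shox2 centre of either tissue within 50 kb, a share not computed for all Pbx peaks. Of these sites, 3849 (72.8%) had at least 1 other Pbx peak within that distance. Over all the sites, 17.1% had no other Pbx peak within 50 kb, close to the 18.3% of all Pbx peaks under 2000 bp. The value was 23.9% for Pbx peaks with limb Shox2 alone and 14.2% for those with palate Shox2 alone.

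Neighbouring Pbx peaks were often both sites. The nearest other Pbx peak under 2000 bp was itself without Shox2 for 78.4% of the sites and for 61.9% of the other Pbx peaks. Over all Pbx peaks under 2000 bp the share without Shox2 was 74.1%, so the value for the sites was only somewhat higher. A share that high gives runs of sites by itself, and the run lengths it would give were not computed. In genome order, the sites formed 5260 runs uninterrupted by a Pbx peak with Shox2, with a median of 2 sites a run, and 1667 were single sites. There were 154 runs of 20 or more, holding 4510 sites (19.0%). Pbx peaks of 2000 bp or more were not counted in these runs.

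The longest run held 106 sites over 4.06 Mb of chromosome 15 (chr15:76993450-81057887). Only 6 limb Shox2 peaks lay in that stretch, beside 23 palate positions. The next was on chromosome 17 (chr17:25236908-27565992), with 75 sites over 2.33 Mb, 1 limb Shox2 peak and 13 palate positions. Chromosome 2 had 58 sites in a row from 26053185 to 27768745, with 1 limb Shox2 peak. It had another 54 from 167058856 to 168284827, where there was no limb Shox2 peak and there were 12 palate positions. Of the 10 longest runs, 3 were on chromosome 17 and 3 on chromosome 2. In 9 of them palate positions outnumbered limb Shox2 peaks, though the limb list is the longer. Since a run ends at a Pbx peak with Shox2, and limb Shox2 met 7249 Pbx peaks in all, picking the longest runs favours stretches poor in limb Shox2. The exception was chr2:175867562-178694838, with 46 sites, 13 limb Shox2 peaks and 7 palate positions.

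The 10 windows of 1 Mb with the most sites had many Pbx peaks, and most of them had few limb Shox2 peaks. Both follow in part from picking windows by their number of sites. Over all windows with at least 10 Pbx peaks, the median was 14 limb Shox2 peaks. Chromosome 8 from 123 to 124 Mb held the most sites, 69 of 74 Pbx peaks, with 3 limb Shox2 peaks and 16 palate positions. The adjoining window from 122 to 123 Mb held 56 of 58. On chromosome 2, the window from 166 to 167 Mb held 61 of 66 and that from 165 to 166 Mb held 52 of 56, with 2 and 4 limb Shox2 peaks and 20 and 19 palate positions. On chromosome 5, 60 of 69 Pbx peaks from 119 to 120 Mb and 51 of 53 from 118 to 119 Mb were without Shox2. The first of these differed from the others in its 24 limb Shox2 peaks. Chromosome 17 from 30 to 31 Mb held 55 of 64 beside 15 limb Shox2 peaks.

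The other 3 of the 10 densest were chromosome 11 from 113 to 114 Mb with 53 of 57, chromosome 2 from 27 to 28 Mb with 50 of 52, and chromosome 4 from 139 to 140 Mb with 50 of 53. Together the 10 windows held 557 sites, 2.35% of all. The median window with a Pbx peak held 7 sites (quartiles 3 and 14). Sites lay in 2332 of the 2400 windows that held a Pbx peak under 2000 bp. Since 74.1% of these peaks were sites, that count says little about the sites beyond where Pbx peaks lay.

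In 75 of the 1317 windows with at least 10 Pbx peaks (5.69%), every Pbx peak under 2000 bp was without Shox2. The fullest held 38, on chromosome 4 from 106 to 107 Mb. Windows of 35 lay on chromosome 15 (78 to 79 Mb) and chromosome 17 (29 to 30 Mb), followed by 34 on chromosome 8 (119 to 120 Mb) and 29 on chromosome 1 (182 to 183 Mb). The windows on chromosomes 15 and 17 held 0 limb Shox2 peaks and 11 and 17 palate positions. Over the 75 windows the median was 2 limb Shox2 peaks, against 14 over all 1317. For palate positions the medians were 6 and 8, much closer together. That these windows are poor in Shox2 follows in part from how they were picked.

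At the other end, 138 windows with at least 10 Pbx peaks had under 50% of them without Shox2. On chromosome 2 from 114 to 115 Mb, 1 of 16 Pbx peaks was without Shox2, in a window of 49 limb Shox2 peaks. On chromosome 1 from 165 to 166 Mb, 2 of 24 were, among 79 limb Shox2 peaks and 22 palate positions. Windows on chromosome 8 (104 to 105 Mb) and chromosome 10 (37 to 38 Mb) each had 2 of 12, and a window on chromosome 16 (86 to 87 Mb) had 2 of 11. Chromosome 8 thus held windows of both kinds, with 93.2% of Pbx peaks without Shox2 from 123 to 124 Mb and 16.7% from 104 to 105 Mb.

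**Figure D4:**
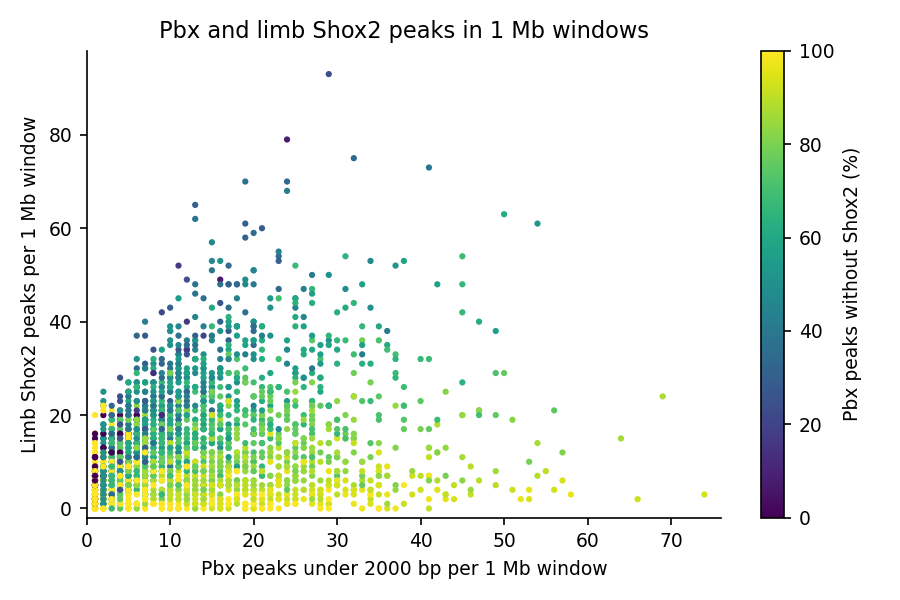
Each point is a window of 1 Mb, placed by its number of Pbx peaks under 2000 bp (horizontal axis) and of limb Shox2 peaks (vertical axis), and coloured by the percent of those Pbx peaks without Shox2. The window with 74 Pbx peaks has 3 limb Shox2 peaks, and the window with 79 limb Shox2 peaks and 8.33% of Pbx peaks without Shox2 has 24 Pbx peaks.

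Across windows, the share was higher where Pbx peaks were many. It was 66.2% in windows with 1 to 4 Pbx peaks and 65.6% with 5 to 9, then 71.8% with 10 to 19, 75.6% with 20 to 29 and 80.7% with 30 to 74. The mean number of limb Shox2 peaks was 16.3 in windows with 10 to 19 Pbx peaks and 16.9 in those with 30 to 74, and that of palate positions was 7.22 and 13.9. From 10 Pbx peaks a window upward, mean palate positions thus grew with Pbx, while mean limb Shox2 peaks stayed between 16.3 and 17.8. The median number of limb Shox2 peaks was 14 with 10 to 19 Pbx peaks, 15 with 20 to 29 and 12 with 30 to 74.

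By chromosome, the share ran from 65.4% on X (interval 60.5 to 70.1%) to 80.2% on chromosome 17 (78.0 to 82.3%). On the autosomes the lowest shares were 66.5% on chromosome 3 and 67.1% on chromosome 18, where limb Shox2 was densest at 17.6 and 17.9 peaks per Mb. The highest after chromosome 17 was 79.0% on chromosome 11. Intervals of neighbours in this order overlapped, but those of chromosomes 3 and 17 were far apart. Over the 19 autosomes, Spearman's rho of the share was -0.87 with limb Shox2 peaks per Mb and 0.60 with Pbx peaks per Mb. With X included, rho was -0.61 and 0.66 over 20 chromosomes. X went against the first relation, with the lowest share and only 4.385 limb Shox2 peaks per Mb. The relation with limb Shox2 is tied to the rule, since more Shox2 peaks leave fewer Pbx peaks without one. All of these describe points from the same libraries. X carried 1.04% of the sites and 1.57% of the other Pbx peaks.

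**Figure D5:**
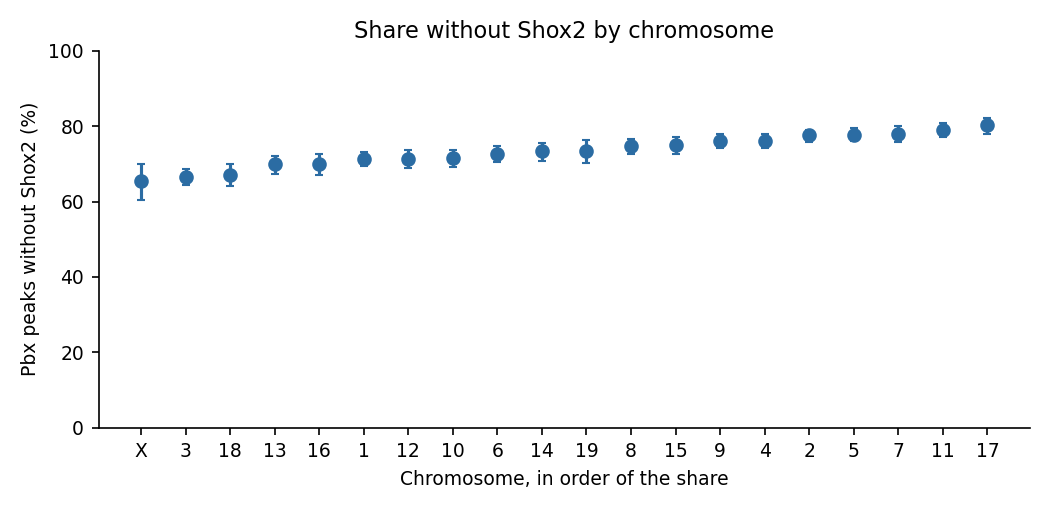
Percent of Pbx limb peaks under 2000 bp without Shox2 (vertical axis) for chromosomes 1 to 19 and X (horizontal axis, in order of the share), with 95% Wilson intervals that treat peaks as independent. Y, with 2 Pbx peaks, is left out. The share goes from 65.4% on X to 80.2% on chromosome 17.

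Of the first 5 sites in file order, 4 were on chromosome 17, and 3 of these lay between 17 and 18 Mb. The whole Pbx list opens with the site chr17:17370501-17372367, 1867 bp wide. The next sites were chr17:17141414-17142581 at line 5, chr17:17430593-17432100 at line 7, chr17:15700549-15702355 at line 10 and chr11:85165645-85167215 at line 13. The first 3 had no other Pbx peak and no Shox2 of either tissue within 50 kb, and lay 54.1, 173 and 59.1 kb from the nearest Shox2 entry.

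The 3 sites between 17 and 18 Mb belong to a regularly spaced row of Pbx peaks, which was examined after the first lines were seen. Between 17 and 18 Mb of chromosome 17, 7 Pbx peaks under 2000 bp stood in the first 500 lines, and 6 of them were without Shox2. Their lines were 15, 5, 34, 26, 32, 1 and 7 in genome order. Their centres followed each other at 53.6, 58.9, 57.4, 57.8, 55.3 and 59.9 kb, and their widths ran from 1168 to 1867 bp. The fifth, at line 32, met Shox2. A second such window, chromosome 13 from 62 to 63 Mb, held 6 peaks in the first 500 lines, all without Shox2. Their spacing was uneven, from 29.0 to 337 kb, and their widths ran from 1141 to 1435 bp.

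Of the 204 sites in the first 500 lines, 27 (13.2%) lay on chromosome 17, which carried 4.53% of all the sites. The share of chromosome 17 among the Pbx peaks with Shox2 in those lines was not computed. Whether the higher share is particular to sites without Shox2 is therefore not known. The 204 sites fell in 171 windows of 1 Mb.

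The most crowded site was on chromosome 17 too. Around chr17:30985454-30986080, at line 15834, 23 other Pbx peaks lay within 50 kb, of which 21 were without Shox2, with no limb Shox2 peak and 3 palate positions. Sites with 14 others of their kind within 50 kb were chr4:134200699-134201732 and chr3:101289949-101290905, both with no limb Shox2 peak nearby and with 2 palate positions. The site chr11:52883133-52883882 had 13 and chr17:83514223-83516108 had 12. The last differed from the other 4 in having 4 limb Shox2 peaks and 5 palate positions within 50 kb, none of them on it. Whether these groups of peaks fall at genes, promoters or enhancers was not examined, since no annotation of mm9 was used here.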

How the data were processed

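ChIP-seq peak lists of 3 libraries were used, out of 7 in the series: Pbx limb, Shox2 limb and Shox2 palate, all at stage E12.5. Per the submitters' processing notes, Bowtie, MACS2 and the mouse build mm9 were used, with versions and peak cutoffs not given in the sources used. The deposited lists give chromosome, start and end with no score, and the palate list gives single positions. The Pbx and limb Shox2 lists both hold 33915 peaks, an equality whose origin is not given.

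Overlap needed 1 bp. Gaps were measured between edges and neighbours between centres, in Python 3.11.15 with NumPy 2.4.6, pandas 2.3.3 and SciPy 1.17.1, and the overlap code was tested on simulated peaks. Place is the line number in the deposited Pbx list. Coordinates are 1-based. With 1 library per group there is no replicate error and no test across conditions was run. The sites, groupings and measures were chosen with earlier results of these data known. Windows and single sites were named by rule: the 10 windows with most sites, the 5 with the highest and the 5 with the lowest share among windows with at least 10 Pbx peaks, the first 5 sites in file order, the 5 with most others within 50 kb, the 5 farthest from Shox2, and the 3 peaks on each side of the overlap rule. No genome or annotation of mm9 was used here, so genes, promoters, motifs and sequences are not given. Other extents, widths, list lengths and neighbourhoods were tried as alternatives.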

Additional observations from a re-analysis of the deposited data

How the results depend on the processing

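The share of Pbx peaks without Shox2 (74.1%) was 81.8% with peaks set to 200 bp, 72.5% and 70.8% with no Shox2 within 500 or 1000 bp, 77.4% with the limb list alone and 94.1% with the palate list alone. It was 80.3% with the first 50% of the limb Shox2 list, 65.7% in the first 50% of the Pbx list, 72.9% for Pbx peaks of any width and 80.9% below 1000 bp. The median width was 842 bp for any width and 854 bp at 200 bp extents, and the median line 18868 and 18688. The median gap to limb Shox2 was 70.9 kb with the first 50% of the limb list, and the spacing of sites to Pbx peaks was 13.0 kb for any width. The difference between crowded and lone Pbx peaks was 14.2 points in the first 50% of the Pbx list and turned to -1.86 with the palate list alone. The alternatives on crowding, and the one without Y, were chosen after seeing the data. The densest windows held 68.6 sites per Mb at 500 kb, against 55.7 at 1 Mb, which was within the 1.5 times allowed for counts. The other 11 alternatives stayed within the 95% counting interval of the value reported. No paired analysis was possible because only 1 library stands behind each list. Alternatives on promoters and motifs were not run. Lists without scores limit what can be said of strength, and a weak Shox2 peak can be missing from a list.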
